A study of Mus musculus with 6 samples.

Results

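The Z-disc is the plate of the sarcomere where actin filaments of neighbouring units are anchored and where the spring protein titin ends. A group of proteins there, at the titin spring and at the intercalated disc, binds these filaments and also carries signals of stretch to the nucleus. In heart muscle several of their genes are known to be induced by load, and mutations in some of them cause cardiomyopathy. The 10 genes described here encode ankyrin repeat proteins (Ankrd1, Ankrd23), LIM domain proteins (Csrp3, Fhl1, Fhl2), the Z-disc partners Tcap and Myoz2, and the actin-binding scaffold proteins Nrap, Xirp1 and Xirp2. They were chosen by name, with earlier results of these data known, as all probe sets whose platform symbol is one of the 10. This gave 11 probe sets of 45037 and 9 genes of 18193. No probe set is named Xirp2 in the annotation used here, so Xirp2 was not analysed. Ankrd1 and Fhl1 have 2 probe sets each and the other 7 genes have 1.

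The study compared hearts of 3 miR-1-2 knockout mice with hearts of 3 wild-type mice, all at postnatal day 10. The deleted gene encodes a copy of miR-1, a muscle microRNA that lowers messenger RNAs it pairs with. Each heart was measured on 1 array, the labels give neither strain nor litter, and the microRNA itself was not analysed. All values below are log2 values normalized by the authors with RMA, and a difference is knockout minus wild type.

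Array medians lay between 6.03 and 6.11. The tissue carried heart muscle markers in every array: the mean of 10 cardiomyocyte genes was 13.60 to 13.71 in knockout and 13.58 to 13.68 in wild type. The mean of 12 skeletal muscle genes was 5.64 to 5.72 in knockout and 5.66 to 5.74 in wild type, below the array medians, and 0 of the 12 had an unadjusted p under 0.05. Other features of the arrays did differ. Xist, which is transcribed from an inactive X chromosome, stood at 7.55, 12.19 and 7.57 in knockout replicates 1, 2 and 3, against 11.91, 12.13 and 12.08 in wild type. Sex was therefore not balanced between the genotypes. With the Xist level as a covariate, a difference rests mainly on knockout replicate 2, the only knockout array with high Xist. Ucp1 of brown fat was high in replicate 1 of both genotypes, at 10.39 in knockout and 9.45 in wild type, and between 5.22 and 6.68 elsewhere. Atrial marker genes were lower in knockout for 5 of 5 (mean per array 9.86 to 11.32 in knockout, 10.81 to 11.48 in wild type), and myeloid marker genes for 5 of 5 (7.40 to 7.62 in knockout, 7.64 to 7.97 in wild type). Of all 18193 genes, 9059 were lower in knockout. The atrial means overlapped between the groups, and the lowest was that of knockout replicate 3. An unadjusted p under 0.05 was seen for 1 atrial and 3 myeloid genes (4.1% of all genes). After adjustment over all genes, 0 of them passed. The part of sex, tissue share and marker genes in the values below was not tested. Values without an array or with the Xist covariate are given as descriptions. In whole hearts, fewer cells of a type and less RNA per cell cannot be told apart.

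Muscle LIM protein (Csrp3) and Nrap were lower in every knockout heart than in any wild-type heart, and none of the 9 measured genes passed the threshold of 0.05 after adjustment over all genes with limma. With limma, 0 of 18193 genes passed (0%), and 746 genes, 4.1%, had an unadjusted p under 0.05. Among the 9 members that count was 2, Csrp3 and Nrap, both lower in knockout, where 1.91% of all genes had such a p and were lower. Of the 11 member probe sets, 0 passed, beside 3 of all 45037 (0.00666%). A limma fit with the replicate number of the titles as a block called 13 genes (0.0715%). Of these, 0 were members (adjusted p between 0.526 and 0.875). In that fit 4 members had an unadjusted p under 0.05, Csrp3, Tcap, Nrap and Xirp1, beside 7.29% of all genes. Deviations from the group means correlated at 0.54 between the first replicates. For replicates 2 and 3 they correlated at 0.18 and 0.13 between same-numbered arrays, against 0.35 and 0.30 between crossed ones. The pairing of replicates 2 and 3 was thus not established. Results with the block or by pairs are therefore descriptions. The Z-disc proteins are taken first, then those of the titin spring and of the intercalated disc.

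Csrp3 encodes muscle LIM protein, a Z-disc protein that binds alpha-actinin and telethonin and is known for the dilated cardiomyopathy of mice that lack it. Its values were 12.78, 12.80 and 12.81 in knockout replicates 1, 2 and 3, against 13.07, 13.01 and 12.99 in wild type. All knockout arrays lay below all wild-type arrays, and the knockout values spanned only 0.03. The mean was 12.80 ± 0.02 in knockout and 13.02 ± 0.04 in wild type (SD, n = 3 each), a difference of -0.23 ± 0.07 (SE, 95% interval -0.38 to -0.08), or 1.17-fold lower. The difference did not pass over all genes with limma (adjusted p = 1.00, and 0.536 with the block). Knockout replicate 2, whose Xist level is that of the wild-type arrays, stood with the other knockout arrays. The difference was -0.22 with the Xist level as a covariate, a value that rests mainly on knockout replicate 2 as well. The part of sex was not tested.

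Tcap encodes telethonin, which caps the end of titin at the Z-disc. Its values were 10.73, 10.57 and 10.44 in knockout, against 11.15, 10.69 and 10.69 in wild type. Knockout was lower within each replicate number, but the groups overlapped because knockout replicate 1 lay above wild-type replicates 2 and 3. The difference was -0.26 ± 0.13 (SE, 95% interval -0.57 to 0.04) and did not pass (limma adjusted p = 1.00). Without wild-type replicate 1, the highest array, it was -0.11.

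Myoz2 encodes calsarcin-1, a Z-disc protein that tethers calcineurin to alpha-actinin. Its values were 12.75, 12.49 and 12.61 in knockout, against 12.82, 12.65 and 12.60 in wild type. The groups overlapped over most of their range, and the difference of -0.07 ± 0.09 (SE, 95% interval -0.28 to 0.14) was smaller than the SD within either group, 0.13 in knockout and 0.11 in wild type.

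Ankrd1 encodes the cardiac ankyrin repeat protein, which binds the titin spring and also enters the nucleus, and whose transcript is a common marker of cardiac load. The brighter of its probe sets, 1420992_at, stood at 11.70, 12.55 and 12.50 in knockout, against 11.92, 12.13 and 12.26 in wild type. Knockout replicates 2 and 3 were above every wild-type array and knockout replicate 1 was below every one. The knockout values spanned 0.86 and the wild-type values 0.34, the widest spread in knockout among the 9 genes. The difference was 0.15 ± 0.21 (SE, 95% interval -0.33 to 0.63). It depended on single arrays, being 0.42 without knockout replicate 1 and -0.0048 without knockout replicate 2. The other probe set, 1420991_at, had the same order of arrays in each group and a difference of 0.20 ± 0.16 (SE, 95% interval -0.17 to 0.57).

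Ankrd23 encodes a related ankyrin repeat protein of the titin spring. Its values were 9.20, 9.50 and 9.74 in knockout, against 9.74, 9.77 and 9.64 in wild type. Knockout replicates 1 and 2 lay below all wild-type arrays and knockout replicate 3 lay among them. The difference was -0.24 ± 0.13 (SE, 95% interval -0.53 to 0.05), and it ranged from -0.37 without knockout replicate 3 to -0.10 without knockout replicate 1. The sign for Ankrd23 was thus opposite to that for Ankrd1, and both intervals include 0.

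Fhl1 and Fhl2 encode LIM-only proteins that bind the titin spring and take part in kinase signalling. Fhl2 stood at 12.30, 12.02 and 12.08 in knockout, against 12.20, 11.91 and 11.94 in wild type. It was higher in knockout within each replicate number by nearly the same amount (0.10, 0.11 and 0.14), while the groups overlapped. Its difference was 0.12 ± 0.11 (SE, 95% interval -0.13 to 0.36). With the Xist level as a covariate it was -7e-04, a value that rests mainly on knockout replicate 2.

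Fhl1 lies on the X chromosome. Its brighter probe set, 1417872_at, stood at 10.67, 10.76 and 10.63 in knockout, against 10.72, 10.55 and 10.50 in wild type. The highest of these was knockout replicate 2, the knockout array with high Xist. The lowest were wild-type replicates 3 and 2, whose Xist was also high, and the groups overlapped. The part of sex was not tested. The difference was 0.10 ± 0.08 (SE, 95% interval -0.09 to 0.29). The second Fhl1 probe set, 1459003_at, was at 5.18 ± 0.23 in knockout and 5.20 ± 0.01 in wild type (SD, n = 3), below the array medians, with a difference of -0.02.

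Nrap encodes a nebulin-related anchoring protein of the intercalated disc and of forming myofibrils. Its values were 8.38, 8.57 and 8.65 in knockout, against 8.71, 8.80 and 8.69 in wild type. All knockout arrays lay below all wild-type arrays, with a gap of 0.04 at the closest replicate number. The mean was 8.53 ± 0.14 in knockout and 8.73 ± 0.06 in wild type (SD, n = 3 each), and the difference was -0.20 ± 0.09 (SE, 95% interval -0.40 to -0.0034), or 1.15-fold lower. It did not pass with limma (adjusted p = 1.00, and 0.646 with the block), and it was -0.12 without knockout replicate 1.

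Xirp1 encodes Xin, an actin-binding repeat protein of the intercalated disc. Its values were 9.04, 9.49 and 9.49 in knockout, against 8.90, 9.24 and 9.17 in wild type. Knockout was higher within each replicate number, by 0.14, 0.24 and 0.33, but the groups overlapped because knockout replicate 1 lay below wild-type replicates 2 and 3. The difference was 0.24 ± 0.14 (SE, 95% interval -0.08 to 0.56), and it ranged from 0.14 without wild-type replicate 1 to 0.39 without knockout replicate 1.

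**Figure D1:**
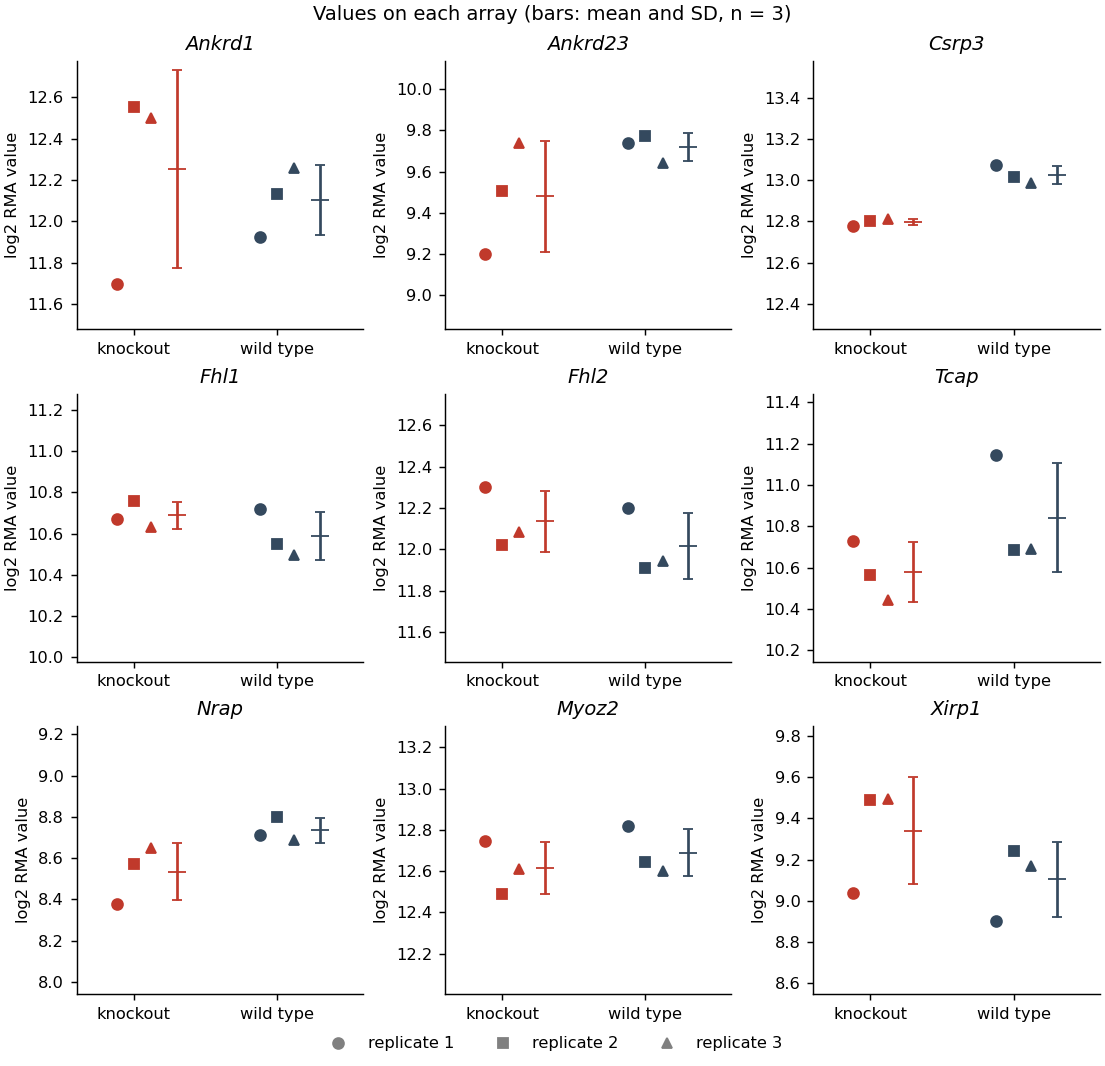
Log2 RMA values of the 9 measured genes on each array, with knockout on the left and wild type on the right of each panel. Symbols mark the replicate number and bars the mean and SD (n = 3), and all panels span the same number of log2 units. Csrp3 and Nrap are the genes whose knockout points all lie below the wild-type points, and Ankrd1 has the widest knockout spread, 0.86.

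Over the 9 genes, 4 were higher and 5 lower in knockout, with a median difference of -0.07, beside 0.0005 over all genes. Over the 3145 genes at least as bright as Nrap, the dimmest of the 9, the median was 0.03. The median absolute difference was 0.20 over the 9 genes, 0.06 over all genes and 0.06 over those 3145. All differences lay between -0.26 for Tcap and 0.24 for Xirp1. The groups did not overlap for 2 of the 9 genes, both lower in knockout. Over all genes they did not overlap for 8.86%, and were lower in knockout for 4.28%. Because the 9 genes were chosen with earlier results of these data known, these shares and medians cannot show a trait of Z-disc genes.

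**Figure D2:**
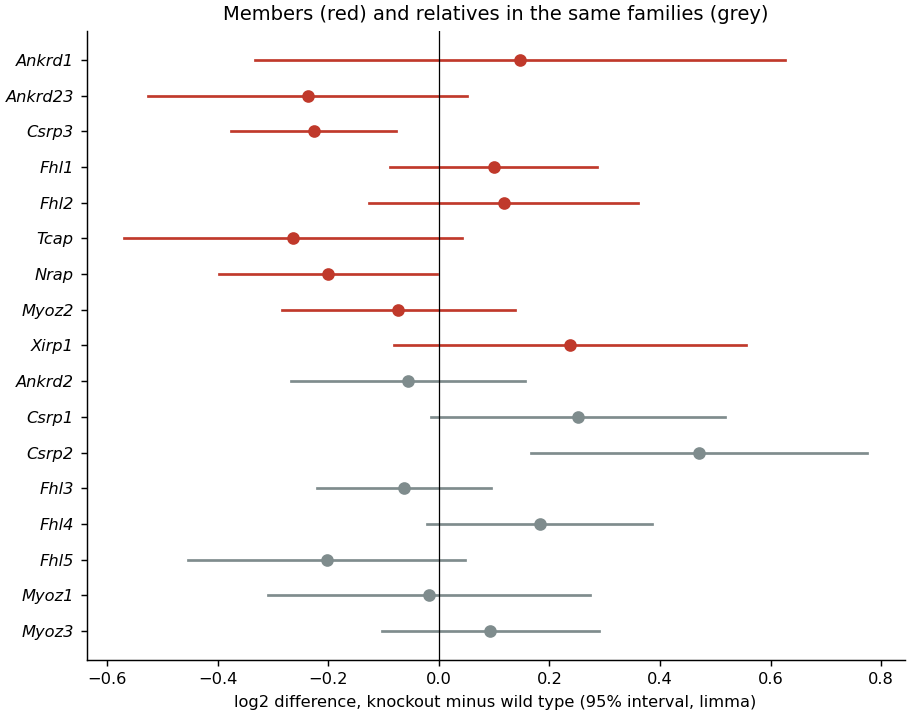
Log2 difference, knockout minus wild type, of the 9 genes (red) and of 8 relatives in the same families (grey), with 95% intervals from limma. The intervals of Csrp3 and Nrap lie below 0 before adjustment and that of Csrp2 lies above it. The other intervals include 0.

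Within replicate numbers, 5 of the 9 genes differed in one direction in all 3 pairs, beside 28.3% of all genes. Csrp3, Tcap and Nrap were lower (13.1% of all genes) and Fhl2 and Xirp1 higher (15.2% of all genes). Tcap differed by -0.42, -0.12 and -0.25, and Csrp3 by -0.29, -0.21 and -0.18. The pair of replicate 1 had the lowest difference of the 3 pairs for 8 of the 9 genes, with Myoz2 as the exception, beside 35.9% of all genes.

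Replicate 1 was the lowest array of both groups for Ankrd1 and Xirp1 and the highest of both for Fhl2, Tcap and Myoz2. That is 5 of 9 genes, a share near the 46.5% of all genes for which replicate 1 was the lowest or the highest in both groups. The first replicates are the arrays with high Ucp1. Without them the differences of the 9 genes kept their signs, at -0.19 for Csrp3, -0.13 for Nrap, -0.19 for Tcap, -0.09 for Ankrd23, 0.29 for Xirp1 and 0.33 for Ankrd1, and 0 of the 9 passed.

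**Figure D3:**
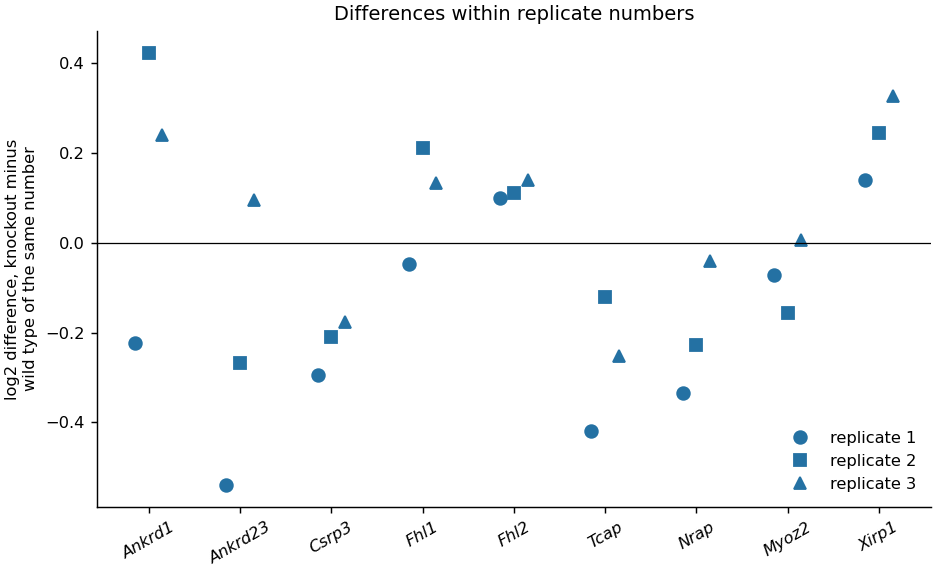
Log2 difference between the knockout and the wild-type array of the same replicate number for each of the 9 genes. Csrp3, Tcap and Nrap lie below 0 in all 3 pairs and Fhl2 and Xirp1 above it. Ankrd1 has the widest spread above and below 0, with -0.22 for replicate 1 and 0.42 for replicate 2.

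The promoters of the genes whose groups did not overlap, Csrp3 and Nrap, and of Ankrd1, whose knockout arrays spread most, are printed for reference. Each is the 250 bases before the start site in RefSeq's GRCm38.p6 table, in the gene's direction, and for Csrp3 the upstream of its start sites was taken. The table matched 8 of the 10 genes with 12 start sites. Capitals mark matches to the MCAT element CATTCC (read as GGAATG on the other strand), the E-box CANNTG and the string TATATA. The CArG box, the MEF2 site and TATAAA were also searched on both strands.

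Csrp3, chr7:48848052-48848301, minus strand: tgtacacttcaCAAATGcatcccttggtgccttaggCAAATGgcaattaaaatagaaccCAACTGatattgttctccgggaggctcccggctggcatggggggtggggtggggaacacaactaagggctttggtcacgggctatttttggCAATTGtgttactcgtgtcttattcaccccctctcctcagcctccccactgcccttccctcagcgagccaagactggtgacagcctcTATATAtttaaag
Nrap, chr19:56390039-56390288, minus strand: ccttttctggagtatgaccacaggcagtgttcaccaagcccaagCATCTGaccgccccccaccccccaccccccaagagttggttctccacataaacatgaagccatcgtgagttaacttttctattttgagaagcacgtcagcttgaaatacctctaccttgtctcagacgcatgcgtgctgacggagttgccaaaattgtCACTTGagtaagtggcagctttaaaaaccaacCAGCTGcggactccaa
Ankrd1, chr19:36119845-36120094, minus strand: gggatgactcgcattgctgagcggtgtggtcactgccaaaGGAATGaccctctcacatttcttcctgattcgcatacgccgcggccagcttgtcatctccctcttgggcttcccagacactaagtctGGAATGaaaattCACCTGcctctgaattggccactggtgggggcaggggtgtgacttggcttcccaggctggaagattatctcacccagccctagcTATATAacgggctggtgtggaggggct

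The Ankrd1 window held MCAT matches from 210 to 205 and from 123 to 118 bases before the start. MCAT, the element read by TEAD factors, was in 12.6% of all 32851 promoter windows of this length. Ankrd23 had 1 MCAT match, in the window of its downstream start site. The Csrp3 window held 4 E-box matches and the Nrap window 3, and an E-box was in 66.2% of all windows. CArG matches, the element of serum response factor, were in a window of Fhl1 and in both windows of Fhl2 (1.47% of all windows). MEF2 matches were in Fhl2, Myoz2 and Xirp2 (2.92%). The Fhl2 MEF2 match overlapped a TATAAA match (12.4% of all windows) and the Myoz2 match overlapped TATATA (5.25%).

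The families of the members gave a comparison outside the list. Csrp2, a LIM protein close to Csrp3 that is known from smooth muscle and developing vessels, stood at 9.80, 10.35 and 10.08 in knockout, against 9.60, 9.49 and 9.72 in wild type. All knockout arrays lay above all wild-type arrays, the opposite of Csrp3. The difference was 0.47 ± 0.13 (SE, 95% interval 0.17 to 0.78) and did not pass (limma adjusted p = 1.00, and 0.348 with the block). Csrp1, the other member of that family, was higher by 0.25 ± 0.12. Beside this, the mean of 5 smooth muscle marker genes was 9.02 to 9.39 in knockout and 9.01 to 9.18 in wild type. Of the 5, Acta2 was higher by 0.42 and Cnn1 by 0.32. Myh11 differed by 0.01, Tagln by -0.04 and Smtn by -0.03. The part of smooth muscle in the Csrp1 and Csrp2 values was not tested. Of the relatives of Ankrd1, Fhl1 and Myoz2, Ankrd2 differed by -0.06, Fhl3 by -0.06, Fhl4 by 0.18, Fhl5 by -0.20, Myoz1 by -0.02 and Myoz3 by 0.09, and 0 of these passed.

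Other genes of the Z-disc and its attachments were taken as a list of 43 symbols, in which Murc is a former name of Cavin4. The list was also chosen with earlier results of these data known. The shares given beside it are therefore descriptions, and 40 of the 43 symbols were measured. In knockout, 19 were higher and 21 lower, with a median of -9e-04. With limma 0 of the 40 passed, 4 had an unadjusted p under 0.05, all lower in knockout (1.91% of all genes had such a p and were lower), and 5 had groups that did not overlap, again all lower (4.28% of all genes). With the block, 1 passed, which was lower, beside 0.0715% of all genes in either direction. This was Trim54, a muscle RING finger ubiquitin ligase associated with the sarcomere. It stood at 5.85, 6.29 and 6.30 in knockout, against 7.21, 7.04 and 7.09 in wild type. In the blocked limma fit it fell by 0.97 (adjusted p = 0.0318, and 0.334 without the block). The pairing limit given above applies to that call.

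Neb, which encodes the thin filament ruler nebulin, stood at 3.20 ± 0.11 in knockout and 3.68 ± 0.18 in wild type (SD, n = 3), near the bottom of the scale. Cavin4, a caveolar protein of muscle also found at the Z-disc, was at 9.22 ± 0.07 in knockout and 9.50 ± 0.16 in wild type, a difference of -0.28. Hspb8, a small heat shock protein that works with the co-chaperone Bag3, was at 9.11 ± 0.11 in knockout and 9.34 ± 0.12 in wild type, a difference of -0.23, while Bag3 differed by 0.05. Pdlim1, a PDZ and LIM protein that binds alpha-actinin, was the fifth gene with groups apart, at -0.14. Among structural proteins of the disc the difference was 0.02 for Actn2 (sarcomeric alpha-actinin, 95% interval -0.18 to 0.23), 0.03 for Ttn (titin, -0.14 to 0.19) and 0.0084 for Des (desmin, -0.27 to 0.29).

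**Figure D4:**
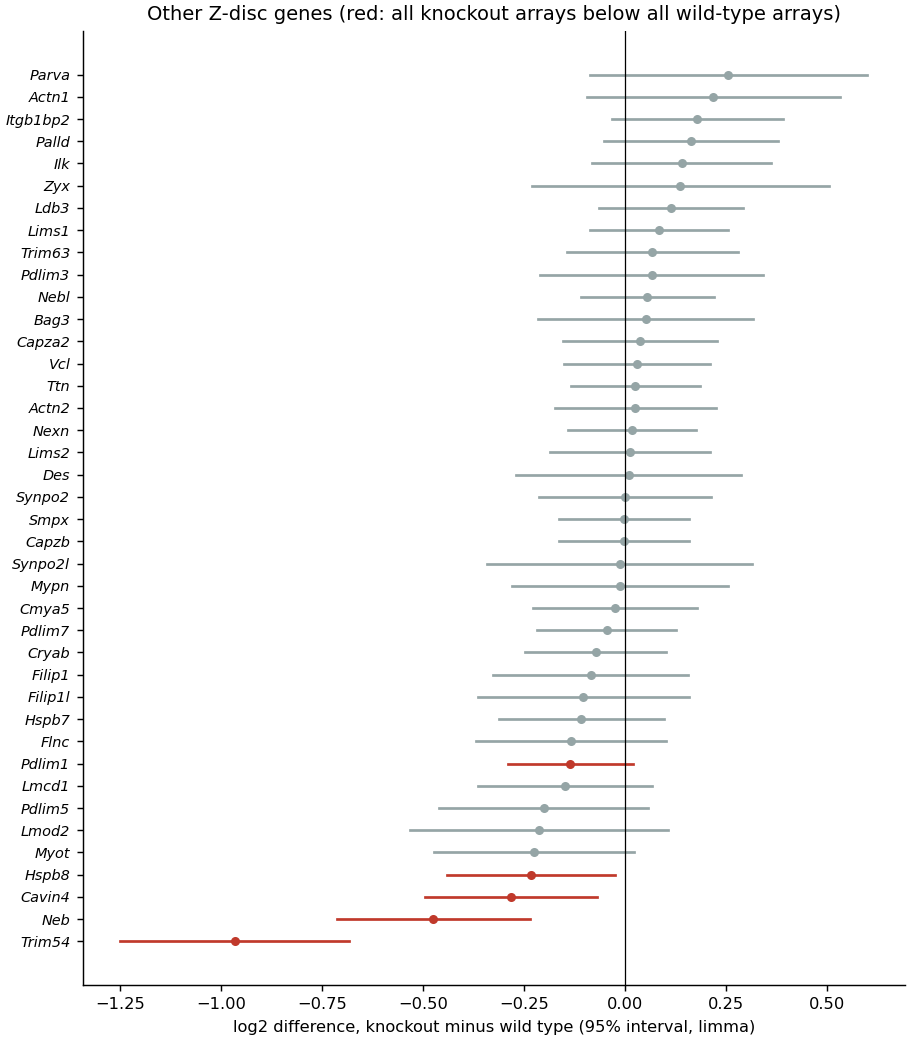
Log2 difference, knockout minus wild type, of 40 other Z-disc genes, with 95% intervals from limma without the block. Red marks the 5 genes whose knockout arrays all lay below the wild-type arrays: Trim54, Neb, Cavin4, Hspb8 and Pdlim1. Trim54 has the lowest value, -0.97.

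The transcripts used as markers of cardiac load did not share one direction, and neither did the members. Nppb, the B-type natriuretic peptide gene, was at 9.98, 11.18 and 10.99 in knockout, against 10.99, 11.59 and 11.75 in wild type. Like Ankrd1, it was lowest in replicate 1 of each group, and the groups overlapped. Nppb was lower in knockout in all 3 pairs and did not pass with the block (limma adjusted p = 0.0837). Its difference was -0.72 ± 0.31 (SE, 95% interval -1.42 to -0.02), and it was -0.36 without knockout replicate 1 and -0.27 with the Xist level as a covariate. For Ankrd1 the fits over all arrays, without knockout replicate 1 and with the covariate gave 0.15, 0.42 and 0.44. Both covariate values rest mainly on knockout replicate 2.

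Nppa, the A-type natriuretic peptide gene, was at 13.26, 13.42 and 12.16 in knockout, against 13.60, 13.09 and 13.50 in wild type. The groups overlapped, and knockout replicate 3 stood below all other arrays. That array also had the lowest mean of the atrial markers (9.86), which include Nppa itself. The difference was -0.45 ± 0.30 (SE, 95% interval -1.13 to 0.23), and it was -0.05 without that array. With the Xist level as a covariate it was -0.01, again resting mainly on knockout replicate 2. Acta1, skeletal actin, was at 10.13, 10.22 and 10.23 in knockout, against 11.06, 10.62 and 10.47 in wild type. All knockout arrays lay below all wild-type arrays, with a difference of -0.53 ± 0.14 that did not pass (limma adjusted p = 1.00), and it was -0.35 without wild-type replicate 1.

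Myh7, the slow myosin heavy chain, was higher by 1.58 and passed with the block (limma adjusted p = 0.0261, and 1.00 without it). It was higher in all 3 pairs, and the groups overlapped. The unblocked difference ranged from 1.10 without knockout replicate 3 to 2.19 without knockout replicate 1. For Myh7 too, the blocked call is subject to the pairing limit given above.

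The genes whose values over the 6 arrays were most like those of Csrp3 were Tango2, Lrrc4 and Kdm4d (Pearson r between 0.989 and 0.99). For Ankrd1 they were Plscr3, Banf1 and Akap9 (r between 0.997 and 0.999). These are descriptions over 6 arrays that share genotype, sex and replicate structure, each picked from 18193 genes.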

How the data were processed

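Total RNA of whole mouse hearts, isolated with Trizol, was amplified to biotin-labelled RNA and hybridised, per the labels' protocols. GCOS 1.4 and RMA are named in the submitters' processing notes. The deposited log2 values are the authors' RMA values (affy package, per the series' design text), which are background-corrected, quantile-normalized and summarised per probe set. RMA compresses differences of dim probe sets and removes shifts shared by most genes. Arrays carry no depth, and their number limits the precision.

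Control probe sets (64) were left out and 45037 kept. The platform annotation named 1 gene for 34945, several for 932 and none for 9160. Each of 18193 genes was represented by its brightest probe set, and 18031 of them matched the RefSeq table by identifier. Every member probe set was also fitted over all probe sets. Genotypes were compared with limma 3.58.1 (R 4.3.3), using moderated statistics without a block. P-values were adjusted by Benjamini-Hochberg over all genes or all probe sets, with a threshold of 0.05. Only the limma fit without the block was tested on simulated data, with independent noise and larger shifts than those of the members.

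Titles of both groups carry replicate numbers 1, 2 and 3. Deviations from the group means, compared across genes, correlated at 0.54, 0.18 and 0.13 between same-numbered arrays. All exceed 0.1, the minimum set for fitting the number as a block. The crossed arrays of replicates 2 and 3 correlated at 0.35 and 0.30, so their pairing rests on the titles. Further alternatives left out each array or changed the filter, probe set summary, normalization, variance model, array weights, Xist covariate or batch term. The set without both first replicates, and all alternatives for the 4 load markers, were added after seeing the data.

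Named are all 10 listed genes with every probe set, 8 family relatives, 4 load markers, array checks, the genes most alike in pattern and, of the other Z-disc genes, the 4 with the smallest p. Pdlim1, Bag3, Actn2, Ttn, Des and Myot were named in addition, after their values were seen, and so were the 5 smooth muscle markers. Members and lists were chosen with earlier results of these data known.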

Additional observations from a re-analysis of the deposited data

How the results depend on the processing

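Under 16 alternatives, 0 of 144 values of the 9 genes passed, with a lowest limma adjusted p of 0.0542 (Csrp3, array weights). Of 153 values of their probe sets, 0 passed. Probe sets were not fitted singly under the mean of probe sets or with ambiguous probe sets left out. Signs held in 142 gene values. The exceptions were Ankrd1 without knockout replicate 2 (range without 1 array -0.0048 to 0.42, also for probe set 1420992_at) and Fhl2 with the Xist covariate (-7e-04). The dim Fhl1 probe set 1459003_at turned to 0.092 without knockout replicate 2 (range without 1 array -0.13 to 0.092, and -0.14 without both first replicates) and to 0.007 with a further quantile normalization. The replicate block changed no call of the 9 genes. The count over all genes was 13 with the replicate block, 15 with a batch term for the first replicates, 3 with the mean of probe sets, 416 with array weights, 1 without replicate 1 of both groups (4 without knockout replicate 1, 2 without knockout replicate 2) and 0 to 4 without 1 array in turn. Of other Z-disc genes, 1 passed with the block, 1 with the batch term, 3 with array weights (Trim54, Neb and Myot) and 0 to 1 without 1 array, the 1 being Trim54 without knockout replicate 1. The causes were not tested. The filter on dim probe sets left these counts at 0. Of the 4 load markers, Myh7 passed with the block (1.58), the batch term (1.58) and array weights (2.19), and the others passed nowhere. Leaving out knockout replicate 2 makes Xist level and genotype coincide.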
